A study of Mus musculus with 5 samples.

Results

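The vacuolar proton pump (V-ATPase) was followed through 10 subunit genes chosen by symbol in the platform annotation: Tcirg1, Atp6v1a, Atp6v1b2, Atp6v1c1, Atp6v1d, Atp6v1e1, Atp6v1f, Atp6v0b, Atp6v0c and Atp6v0d1. Of these, 8 had a probe set, 11 of the 12488 probe sets on the array in all. Atp6v1f and Atp6v0c had none under their symbol and have no value here. The 5 groups, each with 1 array and no replicate, were uninfected Fos-/- spleen cells, Fos-/- spleen cells given a deltaNFAT virus, Fos-/- spleen cells given a GFP virus (green fluorescent protein, the control virus), Fos+/+ spleen cells and Fos+/+ bone marrow cells, the Fos+/+ cells being wild type. Every culture stood 6 days on a layer of ST2-T stromal cells under dexamethasone plus 1,25-dihydroxyvitaminD3. As whole dishes were lysed, every array also holds RNA of the stromal cells, which carry their own Fos and their own proton pumps. The labels describe neither the deltaNFAT construct nor the viral doses, nor the age of the animals.

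The V-ATPase is a rotary motor. A cytosolic sector binds and splits ATP and turns a central stalk, and the stalk turns a ring of proteolipids in the membrane, which carries protons past the large membrane subunit a. Every cell uses it to acidify endosomes and lysosomes. Osteoclasts, the cells that resorb bone, also place it in their ruffled border and pump acid onto the bone surface. Tcirg1 encodes the a3 isoform of subunit a, which is enriched in osteoclasts, and its loss in humans and in the oc mouse causes osteopetrosis. Fos is part of the AP-1 transcription factor, and mice without it form no osteoclasts.

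Because the genes of the pump tended to differ together between the Fos-/- and Fos+/+ spleen cultures, the 250 bases before the annotated start of each were read from RefSeq (build GRCm38.p6), which held 12 such windows for 8 of the 10 genes. Atp6v1b2 and Atp6v1c1 had no window. On both strands 3 motifs were searched, which do not overlap each other: CACGTG, the palindromic E-box that TFEB and MITF bind, TGANTCA, the AP-1 site that Fos and Jun proteins bind, and TGGAAA, an NFAT core. CACGTG lay in 2 of the 12 windows, those of Atp6v0b and Atp6v1a, and in 6.02% of 32851 windows of the same length over all genes. TGANTCA lay in 0 of the 12 windows, against 6.75% of all windows, and TGGAAA only in that of Atp6v0d1, against 18.6%. With the 50 bases after the start included, Atp6v0d1 also held CACGTG, as did 7.15% of these longer windows. The windows of the 2 genes with an E-box are printed with the motif in capitals, and beside them the most upstream of 3 windows of Tcirg1, the subunit with the largest difference, none of which held any of these motifs; the 3 printed lie on the minus strand and are given 5′ to 3′.
Atp6v0b, chr4:117887330-117887579: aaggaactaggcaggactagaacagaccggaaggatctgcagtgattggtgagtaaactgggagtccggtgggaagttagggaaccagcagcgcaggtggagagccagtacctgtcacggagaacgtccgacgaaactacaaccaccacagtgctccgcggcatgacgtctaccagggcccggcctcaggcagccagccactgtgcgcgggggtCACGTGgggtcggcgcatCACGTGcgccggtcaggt
Atp6v1a, chr16:44139260-44139509: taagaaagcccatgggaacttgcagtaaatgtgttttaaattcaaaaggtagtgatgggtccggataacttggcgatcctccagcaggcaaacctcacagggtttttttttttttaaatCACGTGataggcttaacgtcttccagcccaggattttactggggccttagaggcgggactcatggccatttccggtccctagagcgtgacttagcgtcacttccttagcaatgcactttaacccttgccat
Tcirg1, chr19:3907134-3907383: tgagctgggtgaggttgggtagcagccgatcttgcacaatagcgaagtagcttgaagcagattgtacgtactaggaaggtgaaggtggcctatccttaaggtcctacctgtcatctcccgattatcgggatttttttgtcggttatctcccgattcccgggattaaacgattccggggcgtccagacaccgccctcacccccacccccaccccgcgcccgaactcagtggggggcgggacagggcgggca

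Values are array intensities on a linear scale. Those below the floor of 19.8 (the 40th percentile of all values) were set to it in ratios, and a gene was called lower or higher in a pair of arrays when the ratio reached 2-fold and the brighter array reached 39.6. Where several probe sets read 1 gene, the brightest stands for it unless stated. All 55 readings of the pump probe sets were above 39.6, between 136 and 2119. The 1st percentile of the arrays lay between -133 and -77.6, which gives the size of the noise around 0. With 1 array a group no test is possible, and each fold describes a pair of arrays. As a sign of RNA quality, 3′ over 5′ control signals were between 1.02 and 1.31 (Actb) and between 0.77 and 0.85 (Gapdh). Fos itself read 426 in Fos-/- spleen, 581 with deltaNFAT, 607 with GFP, 848 in Fos+/+ spleen and 614 in Fos+/+ bone marrow. The stromal cells have an intact Fos gene, so this does not check the labels, and which cells or allele gave the signal in the Fos-/- arrays was not tested.

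Without Fos, 7 of the 8 measured pump subunits were at least 2-fold lower in spleen co-cultures, 0 were higher, and Atp6v0d1 was neither. Of all 4997 genes bright enough to be called, 6.48% were lower and 6.42% higher in Fos-/- spleen. The median log2 ratio of the 8 subunits, Fos-/- over Fos+/+ spleen, was -1.28, a median 2.43-fold lower level, against a median of 0.03 over all bright genes. Each dish mixes cell types, so fewer osteoclasts and less pump RNA in each cell cannot be told apart.

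**Figure D1:**
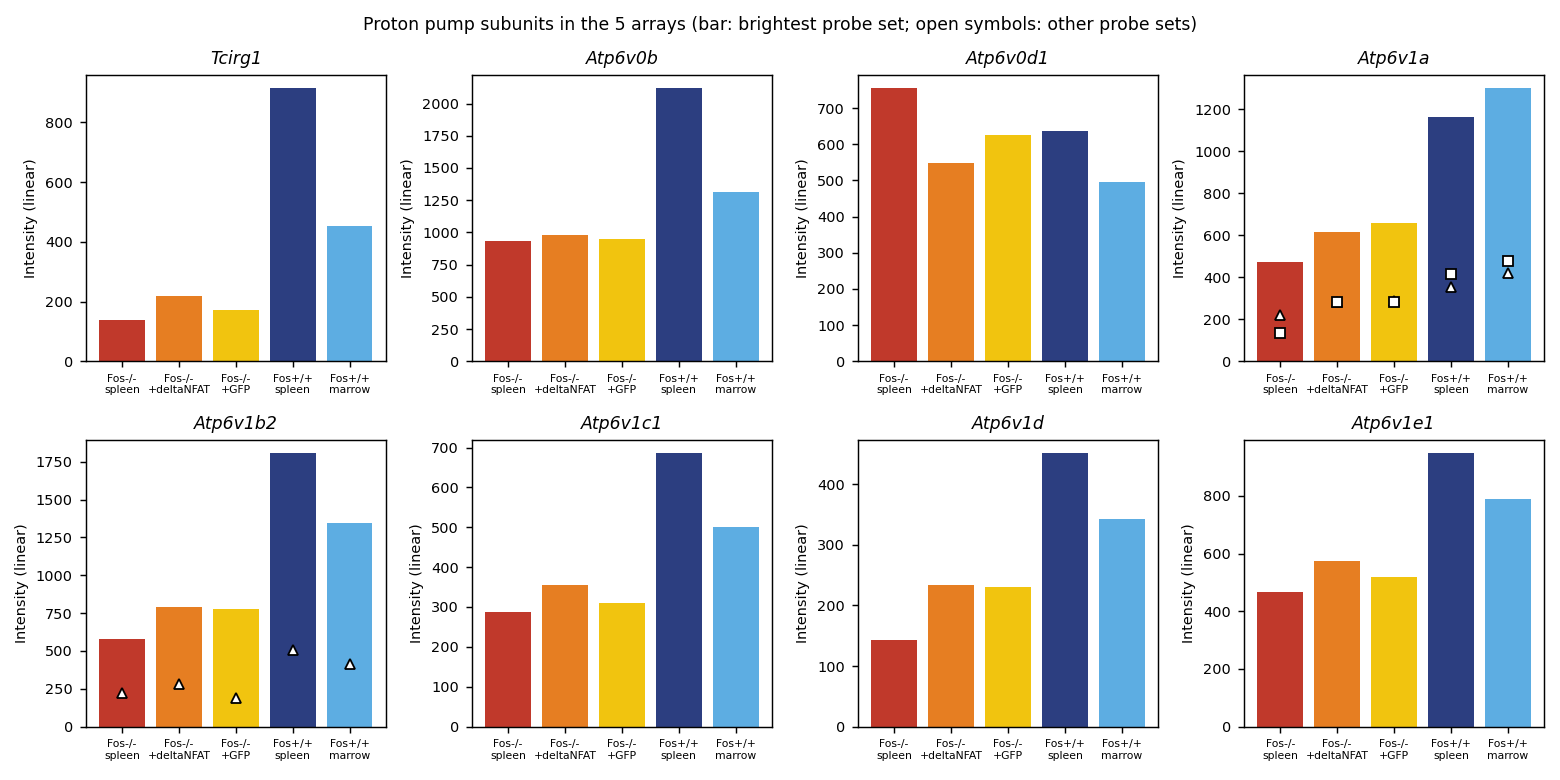
Linear intensity of each pump subunit in the 5 arrays, 1 bar per array for the brightest probe set and open symbols for the other probe sets of Atp6v1a and Atp6v1b2; there are no error bars because each group has 1 array. In 7 of the 8 panels all 3 Fos-/- bars are lower than both Fos+/+ bars, and in the Atp6v0d1 panel they are not.

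In the membrane sector, Tcirg1 showed the widest difference. It read 139.6 in Fos-/- spleen without virus, 219.8 with deltaNFAT and 173 with GFP, against 914 in Fos+/+ spleen and 452 in Fos+/+ bone marrow. The 3 Fos-/- arrays were thus the lowest, and Tcirg1 was 6.55-fold lower in Fos-/- than in Fos+/+ spleen. Only 20 of the 4997 bright genes had a lower ratio in that pair. Atp6v0b, which encodes the c″ proteolipid of the rotating ring, read 930.5 in Fos-/- spleen without virus, 976 with deltaNFAT and 945 with GFP, against 2119 in Fos+/+ spleen and 1316 in Fos+/+ bone marrow. Its 3 Fos-/- values lay within 1.05-fold of each other while the 2 Fos+/+ values differed 1.61-fold, and the Fos-/- spleen array was 2.28-fold lower than Fos+/+ spleen.

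Atp6v0d1 encodes the common form of subunit d, which joins the central stalk to the ring. It read 755 in Fos-/- spleen without virus, 548 with deltaNFAT and 626 with GFP, against 637 in Fos+/+ spleen and 496 in Fos+/+ bone marrow. The groups overlapped, the Fos-/- spleen value was 1.19-fold above that of Fos+/+ spleen, and 68.0% of the bright genes had a lower ratio. The highest and lowest of the 5 arrays differed 1.52-fold, less than for any other member. Its paralog Atp6v0d2, the osteoclast-enriched form, had no probe set under its symbol.

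In the cytosolic sector, the subunits that hold the nucleotide sites were both lower without Fos. Atp6v1a, the catalytic subunit A, read 471 in Fos-/- spleen without virus, 613 with deltaNFAT and 656 with GFP, against 1161 in Fos+/+ spleen and 1299.8 in Fos+/+ bone marrow, and was 2.47-fold lower in Fos-/- than in Fos+/+ spleen. Atp6v1b2, the widely expressed form of subunit B, read 579 in Fos-/- spleen without virus, 789 with deltaNFAT and 775 with GFP, against 1805 in Fos+/+ spleen and 1344 in Fos+/+ bone marrow, and was 3.12-fold lower. For both genes every Fos-/- value lay under every Fos+/+ value.

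These 2 genes had further probe sets, which gave the same direction and different sizes. The other probe sets of Atp6v1a were 1.59-fold and 3.03-fold lower in Fos-/- than in Fos+/+ spleen, so 1 of its 3 probe sets did not reach 2-fold. The other probe set of Atp6v1b2 was 2.27-fold lower. Probe sets of a single gene thus differed in their ratio by as much as several of the subunits differed from each other, and the order of folds among the subunits is not resolved by these arrays. Tcirg1 had the largest fold, but 1 probe set alone reads it.

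The stalk subunits followed the same direction. Atp6v1d, part of the central rotor, read 142 in Fos-/- spleen without virus, 234 with deltaNFAT and 231 with GFP, against 451 in Fos+/+ spleen and 343 in Fos+/+ bone marrow, and was 3.17-fold lower in Fos-/- than in Fos+/+ spleen. Atp6v1c1, a subunit C that bridges the sectors and regulates their assembly, read 287 in Fos-/- spleen without virus, 354 with deltaNFAT and 309 with GFP, against 685 in Fos+/+ spleen and 502 in Fos+/+ bone marrow. It was 2.39-fold lower, and its only probe set has an r suffix, by which the array's maker marks sets chosen under relaxed design rules. Atp6v1e1, in the peripheral stalks that hold the motor still, read 468 in Fos-/- spleen without virus, 573 with deltaNFAT and 520 with GFP, against 947 in Fos+/+ spleen and 788 in Fos+/+ bone marrow. At 2.02-fold lower it was the member nearest the threshold, and its log2 ratio of -1.02 became -0.997 (just under 2-fold) after quantile normalization.

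**Figure D2:**
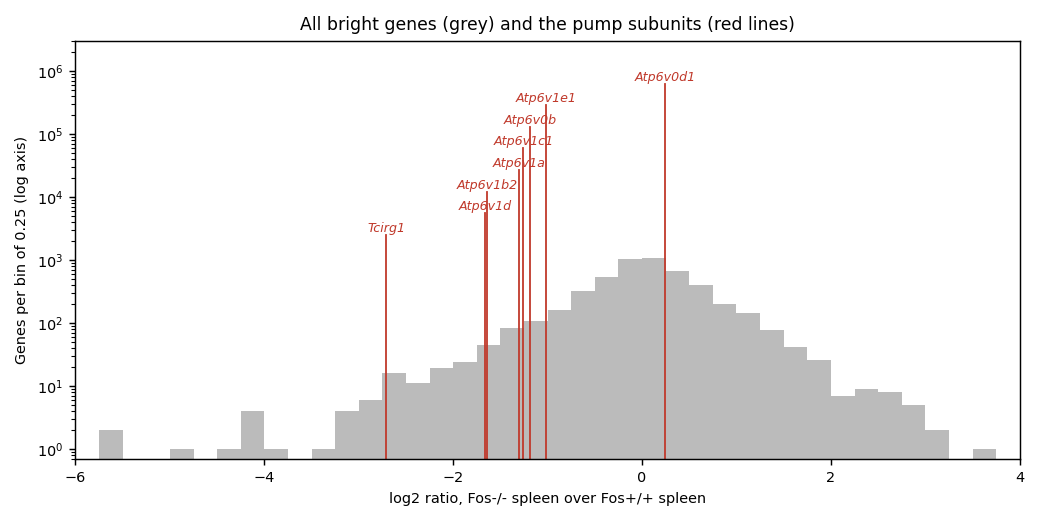
Number of genes (log axis) by log2 ratio of Fos-/- over Fos+/+ spleen, in bins of 0.25 for the 4997 bright genes, with a red line at the ratio of each pump subunit. The lines of 7 subunits lie below -1 and that of Atp6v0d1 lies at 0.24.

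Taking all 5 arrays, the 3 Fos-/- values of 7 of the 8 subunits lay under both Fos+/+ values, with Atp6v0d1 the exception. Of 5567 genes bright in at least 1 array, 15.1% were arranged in this way and 10.0% in the opposite way. The arrays of each genotype differ in tissue or virus and are not replicates. The gap between the lowest Fos+/+ and the highest Fos-/- array was 2.06-fold for Tcirg1, 1.77-fold for Atp6v1a and 1.70-fold for Atp6v1b2. It was narrower for Atp6v1d (1.46-fold), Atp6v1c1 (1.42-fold), Atp6v1e1 (1.37-fold) and Atp6v0b (1.35-fold).

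A second pair of Fos-/- and Fos+/+ arrays, which shares no array with the spleen pair, was GFP virus Fos-/- spleen over Fos+/+ bone marrow, where tissue and virus differ as well. By the brightest probe sets, Tcirg1 alone passed 2-fold there, reading 173 with GFP against 452 in bone marrow, 2.62-fold lower; 9.23% of 5257 bright genes were lower in this pair and 5.97% higher. Atp6v1a stood just outside the threshold at 1.98-fold lower and Atp6v1b2 was 1.73-fold lower, while its other probe set read 189 with GFP against 414 in bone marrow, 2.19-fold lower. The ratio was below 1 for 7 of the 8 subunits, as for 55.8% of bright genes, and the subunits' median log2 ratio was -0.65 against -0.08. Atp6v0d1 was again the exception, 1.26-fold higher with GFP.

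Between the Fos+/+ cultures, pump subunits tended to read lower in bone marrow than in spleen. Tcirg1 alone was called, at 452 in bone marrow against 914 in spleen, 2.02-fold lower, where 7.18% of 5291 bright genes were lower and 13.2% higher. This call was lost after quantile normalization (log2 ratio -0.93 instead of -1.01). Atp6v0b was 1.61-fold lower and Atp6v1a, in the opposite direction, 1.12-fold higher in bone marrow. The median log2 ratio was -0.41 over the 8 subunits and 0.06 over all bright genes.

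**Figure D3:**
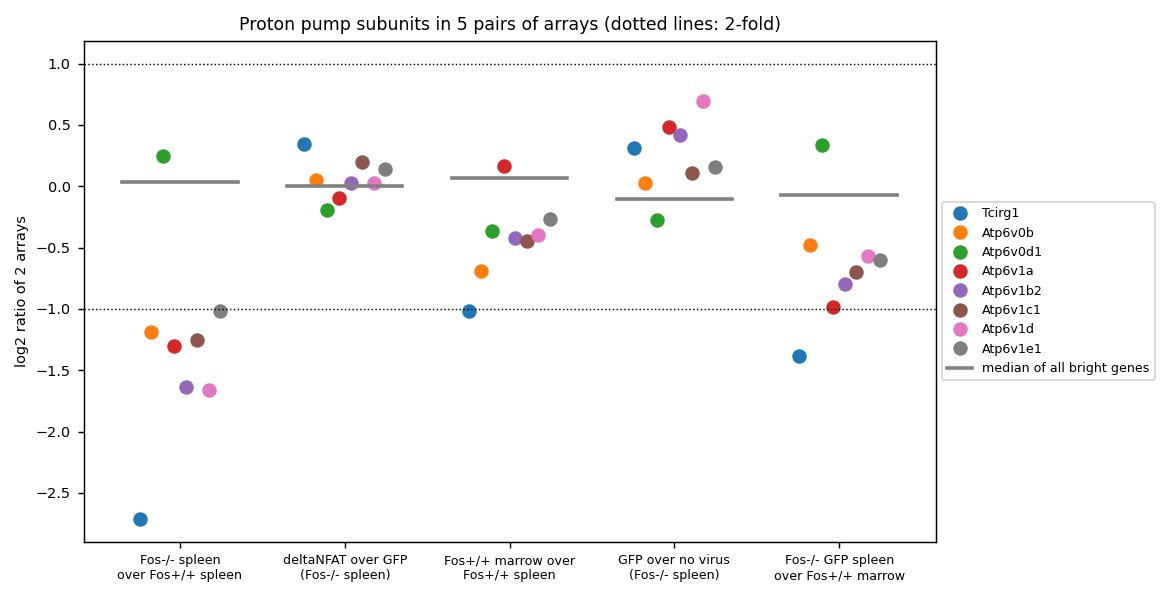
Log2 ratios of the 8 pump subunits, each by its brightest probe set (coloured points), in the 5 pairs of arrays, with the median of all bright genes as a grey bar and dotted lines at 2-fold either way. Subunits pass the lower line in 3 pairs (7, 1 and 1 of them), and in both virus pairs they lie between the lines.

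With deltaNFAT virus, 0 of the 8 subunits were called over GFP virus in Fos-/- spleen cells, where 3.54% of 5032 bright genes were higher and 2.58% lower. Tcirg1 had the largest ratio of the 8, 219.8 with deltaNFAT against 173 with GFP, 1.27-fold higher. Atp6v1c1 was 1.15-fold and Atp6v1e1 1.10-fold higher, Atp6v1b2, Atp6v1d and Atp6v0b lay within 1.03-fold, and Atp6v1a was 1.07-fold and Atp6v0d1 1.14-fold lower. The median log2 ratio was 0.04, beside 0.00 for all bright genes. The other probe set of Atp6v1b2 read 283 with deltaNFAT against 189 with GFP, 1.49-fold higher, where the brighter one gave 1.02-fold. No replicate shows how far 2 arrays of the same condition differ, and folds of this size are no larger than the difference between these 2 probe sets of a single gene.

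Against the same Fos-/- cells without virus, both viruses gave slightly higher values for most subunits. With GFP virus 7 of 8 read above the array without virus and 0 were called, where 10.3% of 5113 bright genes were higher and 7.06% lower. Atp6v1d was 1.62-fold higher, Atp6v1a 1.39-fold, Atp6v1b2 1.34-fold and Tcirg1 1.24-fold, while Atp6v0d1 was 1.21-fold lower. These are the brightest probe sets, and others differed from them. One of Atp6v1a read 280.4 with GFP against 136 without virus, 2.05-fold higher and past the threshold, and the other of Atp6v1b2 read 189 with GFP against 223 without virus, 1.18-fold lower. The subunits' median log2 ratio was 0.23 against -0.11 for all bright genes. The deltaNFAT array was set against the same array without virus: Atp6v1d was 1.65-fold and Tcirg1 1.57-fold higher, and Atp6v0d1 was 1.38-fold lower. The same Atp6v1a probe set was 2.06-fold higher there and the other of Atp6v1b2 1.26-fold higher. These comparisons share the array without virus.

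As a share of Fos+/+ spleen, the subunits read a median of 41.2% in Fos-/- spleen (range 15.3 to 119%), 51.8% with deltaNFAT (24.0 to 86.0%), 48.1% with GFP (18.9 to 98.1%) and 75.2% in Fos+/+ bone marrow (49.5 to 112%). In each array other than Fos+/+ spleen itself, Tcirg1 gave the lowest share. Genes were compared over the 5 arrays by the Euclidean distance between log2 values centred on each gene's mean. This distance takes in the size of the differences as well as their pattern. Atp6v1c1 and Atp6v1e1 were the closest members (0.22), and Atp6v1b2 and Atp6v1d were 0.27 apart. Genes outside the pump lay closer to Atp6v1c1 (Nans, 0.11), Atp6v1e1 (Nme6, 0.11) and Atp6v1b2 (Dnase1l1, 0.18). For Atp6v1d the nearest gene was Atp6v1b2. Tcirg1, the member with the widest differences, lay 0.94 or more from each other member and Atp6v0d1 1.14 or more.

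Among 4799 other genes above the floor in all arrays, those nearest Tcirg1 in this measure were Hbegf, a growth factor that binds the EGF receptor (0.21), Gpr137b-ps (0.34), C77080 (0.40), the myosin Myo1d (0.43) and the mast cell protease Mcpt1 (0.61). Hbegf read 33.0 in Fos-/- spleen without virus, 50.6 with deltaNFAT and 41.4 with GFP, against 198 in Fos+/+ spleen and 90.6 in Fos+/+ bone marrow. Its Fos-/- readings lie close to the floor. With 5 arrays and 4799 genes, near neighbours are found for almost any profile.

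The rest of the pump, from a list of 13 other subunits, had 6 genes on the array, and 0 of them were called in Fos-/- over Fos+/+ spleen. Their median log2 ratio was -0.10. Atp6v0e, a small membrane subunit, read 589 in Fos-/- spleen against 1088 in Fos+/+ spleen, 1.85-fold lower, and Atp6v1h, a regulatory subunit, was 1.48-fold lower. Atp6v1g1 of the peripheral stalk and Atp6v0e2 lay within 1.10-fold. For the other isoforms of subunit a the direction in Fos-/- over Fos+/+ spleen was not that of Tcirg1 in their brightest probe sets. In GFP virus Fos-/- spleen over Fos+/+ bone marrow both were lower, as Tcirg1 was, Atp6v0a1 by 1.41-fold and Atp6v0a2 by 1.20-fold. Atp6v0a1 read 160.4 in Fos-/- spleen without virus, 159.5 with deltaNFAT and 121 with GFP, against 148 in Fos+/+ spleen and 170.0 in Fos+/+ bone marrow. Atp6v0a2 read 216 in Fos-/- spleen without virus, 189 with deltaNFAT and 183 with GFP, against 138 in Fos+/+ spleen and 220.0 in Fos+/+ bone marrow, and its uninfected Fos-/- spleen value stood 1.56-fold above Fos+/+ spleen. A dimmer probe set of Atp6v0a2 disagreed, with 71.3 in Fos-/- spleen without virus, 55.1 with deltaNFAT and 37.2 with GFP, against 93.5 in Fos+/+ spleen and 112 in Fos+/+ bone marrow. Another read 44.0 in Fos-/- spleen without virus, 34.1 with deltaNFAT and 37.5 with GFP, against 44.9 in Fos+/+ spleen and 44.2 in Fos+/+ bone marrow. In both of these every Fos-/- value lay under every Fos+/+ value, unlike in the brightest, so the direction of this gene is not settled. Together with the 8 members this made 7 of 14 measured subunits lower and 0 higher. The accessory proteins Atp6ap1 and Atp6ap2, which help to assemble the pump, were 1.35-fold and 1.5-fold lower and not called. All Fos-/- values of Atp6ap2, but not of Atp6ap1, lay under both Fos+/+ values, with a gap of 1.08-fold.

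**Figure D4:**
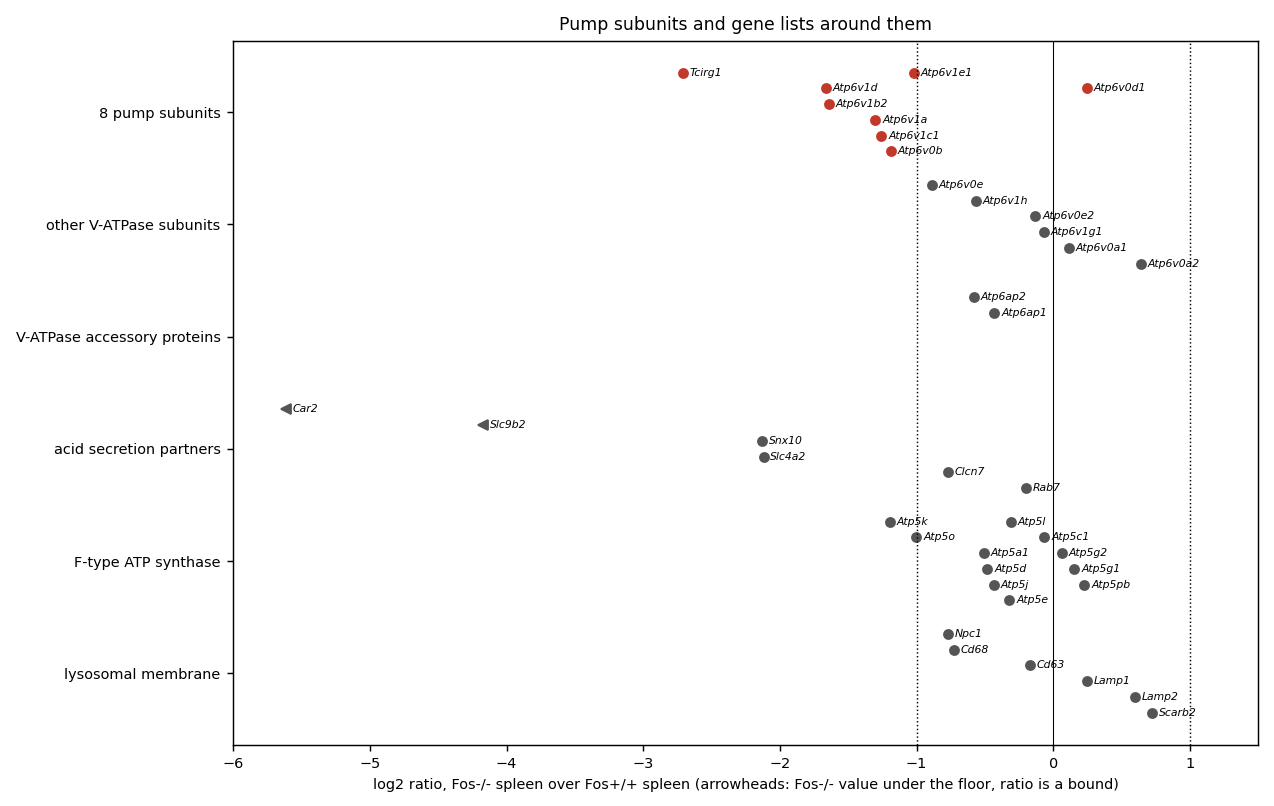
Log2 ratio of Fos-/- over Fos+/+ spleen for the 8 pump subunits (red) and for the bright genes of 5 surrounding lists (grey), each gene named; arrowheads mark Car2 and Slc9b2, whose Fos-/- values lie under the floor. Dotted lines mark 2-fold; the pump subunits other than Atp6v0d1 lie left of the lower line, together with Car2, Slc9b2, Snx10, Slc4a2, Atp5k and Atp5o.

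Of the genes listed as partners in acid secretion, most of which work beside the pump at the ruffled border, 8 were on the array and 6 bright enough in the Fos-/- and Fos+/+ spleen pair. There 4 of the 6 were lower and 0 higher, in the pair where 6.48% of all bright genes were lower. Over all 5 arrays, 5 of the 8 had all Fos-/- values under both Fos+/+ values, as did 15.1% of bright genes. Car2, the carbonic anhydrase that supplies protons, read 13.9, under the floor, in Fos-/- spleen against 971 in Fos+/+ spleen and was at least 49.0-fold lower. Slc9b2, a sodium-proton exchanger, was at least 18.0-fold lower. Snx10, a sorting nexin whose loss causes osteopetrosis in humans, read 75.5 against 330 and was 4.37-fold lower, and Slc4a2, the chloride-bicarbonate exchanger, read 101 against 441 and was 4.35-fold lower. The chloride-proton exchanger Clcn7 (1.71-fold lower) and the late endosomal GTPase Rab7 (1.15-fold lower) were not called by their brightest probe sets, but the other probe set of Clcn7 read 124 in Fos-/- spleen against 269 in Fos+/+ spleen, 2.17-fold lower and past the threshold. With deltaNFAT over GFP, 3 of the 8 were higher, against 3.54% of all bright genes. These were Car2, Slc9b2 and Rab3d, by at least 2.44-fold, 2.64-fold and 2.27-fold, on deltaNFAT readings of 48.4, 52.2 and 45.0. Atp4a, the catalytic subunit of the gastric proton pump, was the 1 called lower, at 14.9 with deltaNFAT, under the floor, against 59.9 with GFP, at least 3.03-fold.

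The mitochondrial F-type ATP synthase is a rotary ATPase of another family, and membrane proteins of the lysosome mark the compartment that holds the pump in most cells. Of 11 bright F-type subunits 2 were lower in Fos-/- spleen, Atp5k (2.29-fold) and Atp5o (2.0-fold), 0 were higher by their brightest probe sets and the median log2 ratio was -0.32. A dim second probe set of Atp5g2 passed the threshold upward, at 39.7 in Fos-/- spleen against 4.80, under the floor, in Fos+/+ spleen. Of 6 lysosomal membrane genes 0 were called, with a median of 0.04. Lamp1 and Lamp2, the main lysosomal glycoproteins, stood 1.18-fold and 1.51-fold above Fos+/+ spleen in Fos-/- spleen, while Cd68 was 1.66-fold lower.

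Markers of cell types moved with the same pairs of arrays, and their part in the pump values was not tested. The summed intensity of the 10 osteoclast markers on the array, which include Car2 and Slc9b2 but no pump subunit, was 2152 in Fos-/- spleen without virus, 3953 with deltaNFAT and 1829.8 with GFP, against 15844 in Fos+/+ spleen and 11965 in Fos+/+ bone marrow. In uninfected Fos-/- spleen over Fos+/+ spleen 9 of 9 bright ones were called lower, against 6.48% of all bright genes. Calcr, Car2 and Slc9b2 were under the floor in the Fos-/- arrays other than deltaNFAT, and Itgb3 in Fos+/+ spleen. With deltaNFAT over GFP, 7 of 9 were higher, against 3.54% of all bright genes. In this pair 0 of the 8 pump subunits were called, which is near that share and no result about them. For Calcr, Car2 and Slc9b2 the folds are bounds, on deltaNFAT readings of 86.4, 48.4 and 52.2. These readings and that of Nfatc1 (82.7) are no larger than the noise around 0 in the widest array (1st percentile -133). Ckb and Acp5 read 203 and 239 with GFP, below the 448 and 462 without virus. Their deltaNFAT values were 1.17-fold and 2.09-fold above those without virus. Nfatc1 was also among the 7, and whether its probe set reads RNA of the virus was not tested. The 9 macrophage markers, cells that also hold V-ATPase, summed to 7929 in Fos-/- spleen without virus, 8714 with deltaNFAT and 8968 with GFP, against 6380.3 in Fos+/+ spleen and 7761 in Fos+/+ bone marrow. Within these sums single genes moved further: Marco was 7.08-fold, Mrc1 3.69-fold and Aif1 3.24-fold higher in Fos-/- over Fos+/+ spleen, and Mrc1 4.88-fold and Msr1 4.47-fold higher in GFP virus over no virus. Of all bright genes 6.42% and 10.3% were higher in these pairs. Cd68 (1.66-fold) and Csf1r (1.03-fold) were lower in the spleen pair, and 4 of the 9 had a ratio below 1 in GFP virus over no virus, with 0 called lower in either pair. The 7 neutrophil markers ranged from 2887 to 6238 over the Fos-/- arrays, against 1229 in Fos+/+ spleen and 8729 in bone marrow, where all 7 were higher than in Fos+/+ spleen. In that pair 13.2% of all bright genes were higher. The 10 stromal markers ranged from 14073 to 15086 in the Fos-/- arrays, against 12268 to 12396 in the Fos+/+ arrays, with Thy1 under the floor in all 5. Tagln (1690 against 758) and Vcam1 (1080 against 428) were called higher in Fos-/- over Fos+/+ spleen. They were 2 of 8 bright stromal markers, with 0 lower, where 6.42% of all bright genes were higher. Over all 5 arrays, 4 stromal markers read higher in every Fos-/- array than in both Fos+/+ arrays, as did 10.0% of bright genes. The 7 B and T cell markers summed to at most 487 in the Fos-/- arrays and 450.2 in the Fos+/+ arrays, with Cd3e, Cd3g and Cd8a under the floor throughout. Here Cd4 was called higher in Fos-/- over Fos+/+ spleen (167 against 25.0, 6.69-fold). In GFP virus over no virus Cd79a (at least 2.63-fold) and Cd79b (3.94-fold) were called lower.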

How the data were processed

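Total RNA of 5 mouse co-cultures was hybridised to 1 one-colour array each (1 sample per group, grouped by title), so the number of arrays limits the precision. The deposited values are 1 intensity per probe set on a linear scale; which software made them is not given here in any source used. Arrays shared a trimmed mean (2% off each end) of 100.1, and 20.3 to 22.4% of values per array were 0 or negative, so the deposited values had already been scaled and background subtracted. Python 3.11.15, numpy 2.4.6 and pandas 2.3.3 were used. Arrays were scaled to an equal trimmed mean, floored at the 40th percentile (19.8), then log2 transformed; ratios are log2 differences of 2 arrays. Probe sets were named from the platform annotation where it gave 1 symbol (10833, apart from 66 control probe sets), giving 8251 genes. Named genes were all members, other pathway genes from fixed lists and the 5 nearest to Tcirg1. The members, lists and call rule were chosen with earlier results of these data known. No test was possible. The procedure was run on simulated data with changes larger than the 2-fold call, in genes well above the floor. That run does not cover folds near the threshold or readings near the floor. Alternatives were the values as deposited, quantile normalization, floors at the 30th and 60th percentile, a 1.5-fold call, the mean of all probe sets, and probe sets without a letter suffix.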

Additional observations from a re-analysis of the deposited data

How the results depend on the processing

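No paired analysis was possible because each group has 1 array, and for the same reason no array could be left out. Of 235 log2 ratios of single subunits under the alternatives, 233 kept their call and direction and 2 fell under 2-fold, both after quantile normalization: Atp6v1e1 in Fos-/- over Fos+/+ spleen (-0.997) and Tcirg1 in Fos+/+ bone marrow over spleen (-0.93). Many of these 235 could hardly change. All subunit readings were above every floor, and the deposited arrays already shared a trimmed mean. Leaving out suffixed probe sets kept the same probe set for each remaining gene, and averaging touched only Atp6v1a and Atp6v1b2. The count of 7 lower subunits in Fos-/- spleen was 6 after quantile normalization and 6 of 7 with probe sets without a suffix, which leave out Atp6v1c1, and 7 under the other alternatives. In Fos+/+ bone marrow over spleen the count of called subunits was 1, or 0 after quantile normalization and 2 at 1.5-fold. At 1.5-fold, 1 was called in GFP virus over no virus (Atp6v1d, higher) in place of 0, and 5 in GFP virus Fos-/- spleen over Fos+/+ bone marrow in place of 1. The deltaNFAT over GFP count was 0 in every setting. Over all genes the floor changed the counts: at the 60th percentile (65.1), 139 were lower and 125 higher in Fos-/- over Fos+/+ spleen, in place of 324 and 321, and 510 and 509 at the 30th (7.40). With deltaNFAT over GFP, 21 were lower and 37 higher at the 60th percentile and 256 and 377 at the 30th, in place of 130 and 178. Quantile normalization moved the median of all bright genes in Fos+/+ bone marrow over spleen by -0.10; the calls there were 35.3% lower ones before and 48.7% after it, and in GFP virus Fos-/- spleen over bone marrow 60.7% and 47.2%. The cause of these shifts was not tested.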

Other observations

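Of 6 lysosomal membrane genes, Lamp1, Lamp2 and Scarb2 read higher in both virus arrays than in all 3 arrays without virus, and Cd63, Cd68 and Npc1 did not. This arrangement was found for 780 of 5567 bright genes and for 0 of the 8 pump subunits. Scarb2, a lysosomal receptor, read 239 with deltaNFAT and 269 with GFP, against 149 in Fos-/- spleen without virus, 90.5 in Fos+/+ spleen and 154 in Fos+/+ bone marrow. Lamp2 read 1045 with deltaNFAT and 921 with GFP, against 718 in Fos-/- spleen without virus, 476 in Fos+/+ spleen and 856 in Fos+/+ bone marrow. Of the MiT/TFE transcription factors, which bind the E-box searched for above, Mitf read 21.8 in uninfected Fos-/- spleen, 14.3 under deltaNFAT and 11.4 under GFP, against 23.1 in Fos+/+ spleen and 40.6 in Fos+/+ bone marrow, where the bone marrow value alone passed 39.6, and Tfeb was under the floor in all 5 arrays. Mitf was called lower, by at least 2.05-fold, in GFP virus Fos-/- spleen over Fos+/+ bone marrow, where 9.23% of bright genes were lower. Its 3 Fos-/- values lay under both Fos+/+ values, as for 15.1% of bright genes. The nearest pair, 21.8 against 23.1, differed 1.06-fold and lay just above the floor of 19.8, and the readings with deltaNFAT and GFP were under it. Of the partners in acid secretion, Snx10 (159 against 75.5) and Atp4a (59.9 against 28.6) were called higher in GFP virus over no virus, where 10.3% of bright genes were higher. By their brightest probe sets 0 of the 8 pump subunits were called there, which does not set them apart from that share, and a dimmer probe set of Atp6v1a was 2.05-fold higher.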
